A study of Mus musculus with 6 samples.

Results

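The nuclear genes for the subunits and assembly factors of the mitochondrial oxidative phosphorylation (OXPHOS) complexes were followed in RNA sequencing of P19, a line of mouse embryonal carcinoma cells. They were taken by name from the deposited gene table: names that start with Nduf, Uqcr, Atp5 or Cox4 to Cox8, the Sdh genes, Cyc1, and the complex IV and V assembly factors Tmem70, Atpaf1, Atpaf2, Surf1, Sco1, Sco2, Cox10, Cox11, Cox14, Cox15, Cox17, Cox18, Cox19 and Cox20. This gave 107 of the 34745 genes in the table, of which 43 belonged to complex I, 4 to complex II, 9 to complex III, 31 to complex IV and 20 to complex V. Ndufa4 and its relative Ndufa4l2 carry complex I names but were counted with complex IV, of which Ndufa4 is a subunit. Atp5s and Atp5sl were counted with complex V by name alone. Of the 6 libraries, 3 came from P19 cells labelled as treated with the peptide PDTLN1, and 3 control libraries came from P19 cells labelled as untreated. All 6 libraries came from the same line in the same serum-containing medium, and the labels give no dose, duration or vehicle. Nothing in the labels says that libraries of a group were separate cultures, so the tests measure the spread between these libraries, which may be technical.

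Oxidative phosphorylation is carried out in the inner mitochondrial membrane. Complexes I and II pass electrons from NADH and succinate to coenzyme Q, complex III passes them to cytochrome c, complex IV passes them to oxygen, and complex V uses the resulting proton gradient to make ATP. Most subunits are encoded in the nucleus and are joined to a small core encoded by the mitochondrial genome, with the help of assembly factors that do not stay in the finished complex. Pluripotent and embryonal carcinoma cells rely strongly on glycolysis, and respiration usually gains weight as they differentiate.

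Total counts were between 10381307 and 11663081 per library. In controls, the embryonal carcinoma markers averaged from 9.91 CPM (counts relative to the scaled library total) for Dppa4 to 1464.5 CPM for Pou5f1. Most of their summed level came from Pou5f1 and Lin28a. The sum was 2909 to 3042 CPM in PDTLN1 libraries and 3019 to 3141 CPM in controls over 8 genes. Of these, 6 had a log2 fold change below 0, and Utf1, a chromatin factor of pluripotent cells, was at 59.3, 61.8 and 50.2 CPM after PDTLN1 and 77.2, 73.1 and 73.0 CPM in controls (log2 fold change -0.38, unadjusted edgeR p 0.00248, adjusted p 0.989). The extraction text speaks of retinas, but none of 10 retinal markers had enough counts to test, their sum was 0.695 to 1.16 CPM in PDTLN1 libraries and 1.25 to 1.41 CPM in controls, and 4 of them were at 0 in all libraries. The summed fibroblast markers were lower in every PDTLN1 library, at 25.4 to 30.2 CPM against 33.1 to 35.3 CPM in controls, with 4 of the 5 tested, all 4 at a log2 fold change below 0, and none at 0 in all libraries. Blood markers summed to 6.86 to 12.6 CPM after PDTLN1 and 7.68 to 12.01 CPM in controls, and heart or muscle markers to 3.68 to 4.61 CPM after PDTLN1 and 4.78 to 6.18 CPM in controls. The heart or muscle sum and the retinal sum, both at low levels, were thus also lower in every PDTLN1 library. The part of these markers in the results was not tested. The libraries did not sort by treatment on their leading axis: the first principal component (35.0% of the variance of log2 CPM) was 18.3, -23.5 and -11.7 in PDTLN1 libraries 1, 2 and 3, and -17.0, 14.2 and 19.8 in control libraries 1, 2 and 3. The 2 libraries numbered 1 therefore lay with the other group. Whether their labels are right was not tested. In Tmem70, the OXPHOS gene with the largest difference, both stood with the group of their label. A gene picked for its group difference tends to show this, so it says nothing of the labels. In Sdhd, Cox19, mt-Nd6 and some other mitochondrial mRNAs, described below, both stood with the other group. So they did in the marker Sox2, at 59.4, 81.4 and 84.5 CPM after PDTLN1 and 98.9, 66.5 and 56.0 CPM in controls. Several values that rest on the 2 libraries numbered 1, but not all, are given with and without them. Leaving out libraries because they lie with the other group favours differences by its construction. Calls made without them are therefore not support for a change.

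Many nuclear respiratory genes are known to be driven by the factors NRF1, GABPA and YY1. The cores of their motifs were searched on both strands in the 300 bases of RefSeq promoter windows (250 before and 50 after the start, build GRCm38.p6), and 87 of the 107 genes had a window. The cores were GCGCATGC for NRF1, the nuclear respiratory factor, CCGGAAG for the ETS family, to which GABPA (NRF2) belongs, and AAGATGGC for YY1. Among the 85 genes with a window that were also tested for expression, the NRF1 core was present in 12 (14.1%), the ETS core in 23 (27.1%) and the YY1 core in 14 (16.5%). Among all 10550 tested genes with a window, these shares were 5.93%, 19.7% and 5.16%. At least 1 of the cores was present in 41 of the 85 (48.2%), against 27.9% of tested genes and 14.9% of all 27025 windows. The median number of CpG dinucleotides was 21 in the windows of the tested OXPHOS genes and 22 in those of all tested genes.

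The windows shown here pair a common complex IV isoform with a tissue isoform of the same subunit (Cox8a with Cox8b, at 0 counts, and Cox6b1 with Cox6b2, at a low level). They add Cox6a1, a common isoform with both an NRF1 and an ETS core, and the complex I subunit Ndufs8, whose counts did not overlap between the groups. They were chosen for their contrast, after their letters and levels were seen, and are not typical of all isoforms. Each is written 5′ to 3′ on the gene's own strand, which is the minus strand for all 6, with motif cores in capitals. The coordinates are chr5:115348909-115349208 for Cox6a1, chr19:7217567-7217866 for Cox8a, chr7:140900397-140900696 for Cox8b, chr7:30626065-30626364 for Cox6b1, chr7:4753045-4753344 for Cox6b2 and chr19:3912725-3913024 for Ndufs8.
Cox6a1: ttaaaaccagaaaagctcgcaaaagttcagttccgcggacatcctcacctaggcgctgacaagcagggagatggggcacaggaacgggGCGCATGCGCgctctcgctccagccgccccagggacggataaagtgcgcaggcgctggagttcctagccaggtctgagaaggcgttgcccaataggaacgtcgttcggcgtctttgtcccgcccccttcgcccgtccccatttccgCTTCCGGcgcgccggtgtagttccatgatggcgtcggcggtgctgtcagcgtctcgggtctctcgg
Cox8a: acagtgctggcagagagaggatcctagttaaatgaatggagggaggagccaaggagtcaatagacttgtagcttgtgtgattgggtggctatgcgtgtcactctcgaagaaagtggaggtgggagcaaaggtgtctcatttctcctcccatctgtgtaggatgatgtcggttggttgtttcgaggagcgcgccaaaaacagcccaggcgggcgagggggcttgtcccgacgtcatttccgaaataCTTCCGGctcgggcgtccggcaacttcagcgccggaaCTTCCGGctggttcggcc
Cox8b: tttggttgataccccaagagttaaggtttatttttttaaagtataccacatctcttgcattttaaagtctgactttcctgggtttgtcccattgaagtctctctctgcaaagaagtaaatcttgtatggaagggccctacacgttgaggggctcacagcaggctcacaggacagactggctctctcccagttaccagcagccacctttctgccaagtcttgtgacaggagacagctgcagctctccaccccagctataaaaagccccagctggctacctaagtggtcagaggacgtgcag
Cox6b1: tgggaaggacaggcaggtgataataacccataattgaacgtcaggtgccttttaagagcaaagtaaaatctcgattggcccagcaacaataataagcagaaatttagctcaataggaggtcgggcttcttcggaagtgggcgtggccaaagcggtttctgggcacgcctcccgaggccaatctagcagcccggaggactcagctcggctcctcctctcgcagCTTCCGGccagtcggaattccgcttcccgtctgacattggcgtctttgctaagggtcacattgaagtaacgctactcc
Cox6b2: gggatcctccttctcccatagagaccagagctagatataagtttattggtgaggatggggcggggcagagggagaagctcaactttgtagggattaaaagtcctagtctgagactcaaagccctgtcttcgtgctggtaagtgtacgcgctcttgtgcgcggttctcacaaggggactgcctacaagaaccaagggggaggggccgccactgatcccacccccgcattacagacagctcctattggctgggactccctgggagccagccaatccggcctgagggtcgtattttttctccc
Ndufs8: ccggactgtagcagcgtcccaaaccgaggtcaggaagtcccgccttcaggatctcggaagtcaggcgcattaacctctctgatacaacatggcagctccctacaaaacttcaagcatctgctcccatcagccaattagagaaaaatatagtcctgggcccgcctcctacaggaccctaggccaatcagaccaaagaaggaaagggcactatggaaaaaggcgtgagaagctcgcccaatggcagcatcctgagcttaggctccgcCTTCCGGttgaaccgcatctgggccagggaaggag
In Cox6a1 the NRF1 core was matched on both strands, overlapping, with first bases at -162 and -160 relative to the start, and an ETS core lay at -16. Cox8a held ETS cores at -5 and 33, Cox6b1 held 1 at -28 and Ndufs8 held 1 at 16. The windows of Cox8b and Cox6b2 contained none of the 3 cores. Cox8a had 19 CpG dinucleotides and Cox8b had 2. Cox6b1 had 17 and Cox6b2 had 10. Other families did not show this contrast: the common isoforms Cox7a2, Cox7b and Ndufa4 held none of the cores, nor did Cox7a1 and Cox7b2, and Cox7b had 5 CpG dinucleotides where Cox7b2 had 10. A match describes the letters in the window and says nothing of whether a factor was bound.

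The abundance of the mRNAs was read from the deposited FPKM (counts relative to gene length and to the library's total), averaged over the 6 libraries. The subunits had a median of 33.0 FPKM and the assembly factors a median of 5.84 FPKM. By complex, the medians were 16.9 FPKM for complex I, 47.0 for complex II, 54.8 for complex III, 11.6 for complex IV and 24.4 for complex V. These medians include assembly factors and, in complex IV, 8 tissue isoforms with a median of 0.407 FPKM. Over subunits alone they were 18.8 FPKM for complex I, 47.0 for complex II, 54.8 for complex III, 23.9 for complex IV and 40.5 for complex V, and the 11 common subunits of complex IV had a median of 76.0 FPKM. The length behind the deposited FPKM was more than 1.5 times that of the gene's principal transcript for 72 of the 105 genes with counts, with a median ratio of 2.04 and a maximum of 7.81, so FPKM is low for these genes relative to a level per principal transcript. Per kilobase of principal transcript, the medians were 44.4 RPKM for complex I, 96.6 for complex II, 101 for complex III, 17.6 for complex IV and 93.5 for complex V over all genes. Over subunits alone they were 51.9, 96.6, 101, 78.4 and 119 RPKM for complexes I to V, and 132 RPKM for the common subunits of complex IV.

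By FPKM, the highest subunit of complex I was Ndufb9, an accessory subunit of the membrane arm, at 94.9 FPKM, and the lowest was Ndufb4, another one, at 1.49 FPKM. The highest place turned on the length: per kilobase of principal transcript Ndufb9 was at 87.8 RPKM, below Ndufa7 at 112 RPKM. In complex II, Sdhd, a membrane anchor, stood highest at 113 FPKM and Sdhc, the other anchor, lowest at 16.5 FPKM. In complex III, Cyc1, the cytochrome c1 subunit, stood at 108 FPKM and Uqcrc1, a core subunit, at 30.3 FPKM. The order of these complex III genes also turned on the length: per kilobase of principal transcript Cyc1 was at 84.7 RPKM and Uqcrc1 at 113 RPKM. Cox8a was the highest of complex IV at 314 FPKM. In complex V, Atp5b, the catalytic beta subunit of the F1 head, stood at 248 FPKM and its partner Atp5a1, the alpha subunit, at 177 FPKM. The remaining F1 subunits were at 64.8 FPKM for Atp5c1, 34.0 FPKM for Atp5d and 19.8 FPKM for Atp5e. Although each is a common subunit, Cox7c stood at 3.43 FPKM and Ndufb4 at 1.49 FPKM, and how reads with several matches were counted is not given in the sources used here.

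**Figure D1:**
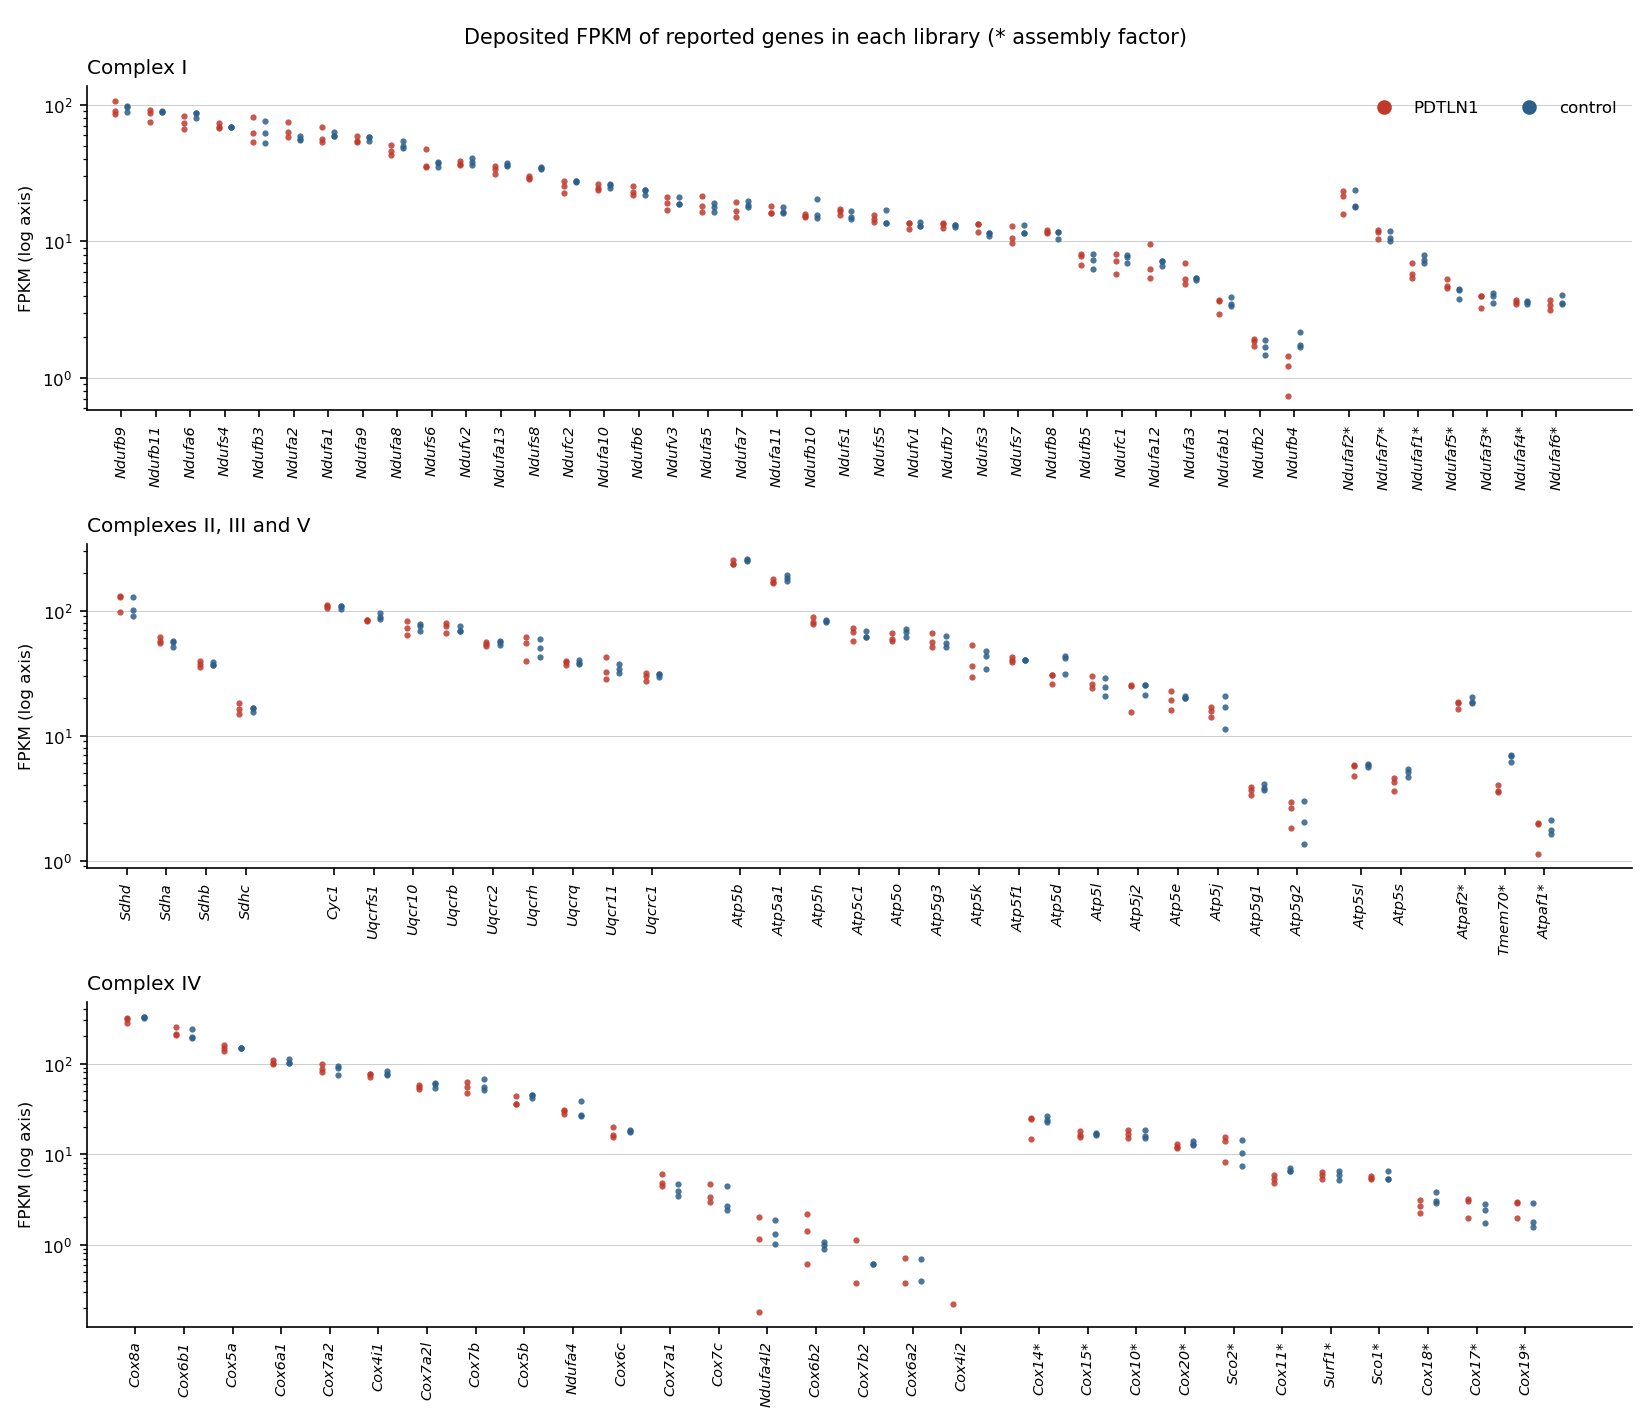
Deposited FPKM (log axis) of the reported OXPHOS genes in each of the 3 PDTLN1 (red) and 3 control (blue) libraries, by complex, with assembly factors marked by an asterisk; values of 0, among them all values of Cox8b and Cox8c, cannot be drawn on a log axis. Subunits reach 314 FPKM (Cox8a), and assembly factors spread widely around their median of 5.84 FPKM, with Atpaf1 at 1.77 and Cox14 at 22.7 FPKM. The groups overlap for most genes but not for Tmem70.

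Several complex IV subunits are encoded by more than 1 gene, with isoforms known from particular tissues. The widely expressed isoform stood highest in each family listed here. Cox4i1 averaged 76.0 FPKM over the 6 libraries (13311 counts), and Cox4i2, the isoform known from lung, had 3 counts, all in PDTLN1 library 3. Cox6a1 averaged 104 FPKM (8168 counts) and Cox6a2, known from heart and skeletal muscle, 0.361 FPKM (16 counts). Cox7b averaged 56.4 FPKM (6345 counts) and Cox7b2, known from testis, 0.453 FPKM (23 counts). Cox8a averaged 314 FPKM (11259 counts), while Cox8b, a muscle isoform, and Cox8c, a testis isoform, had 0 counts in all libraries, which allows up to 0.289, 0.261 and 0.257 CPM in PDTLN1 libraries 1, 2 and 3, and 0.287, 0.281 and 0.268 CPM in control libraries 1, 2 and 3 (3 counts each, for counting error only). These were the 5 genes with too few counts to test.

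Other isoforms were low but measurable. Cox6b2, known from testis, was at 2.16, 0.619 and 1.41 FPKM in the PDTLN1 libraries and 0.886, 1.07 and 0.988 FPKM in the controls, where Cox6b1 was at 207, 214 and 251 FPKM in the PDTLN1 libraries and 243, 192 and 198 FPKM in the controls. On the 6-library means Cox6b1 was 183 times as high as Cox6b2 by FPKM and 31.2 times by principal transcript length. Cox7a1, a heart and muscle isoform, averaged 4.54 FPKM, Cox7a2 87.5 FPKM, and Cox7a2l, which takes part in joining complexes III and IV into supercomplexes, 56.7 FPKM. Ndufa4l2, a relative of Ndufa4 known to be induced by low oxygen, averaged 1.25 FPKM and Ndufa4 30.1 FPKM. The 3 genes for the same mature c subunit of the ATP synthase ring differed as well: Atp5g3 averaged 57.3 FPKM, Atp5g1 3.75 FPKM and Atp5g2 2.31 FPKM. On principal transcript length these were 233, 7.80 and 6.67 RPKM, so Atp5g3 led on both scales while Atp5g1 and Atp5g2 stood close together.

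**Figure D2:**
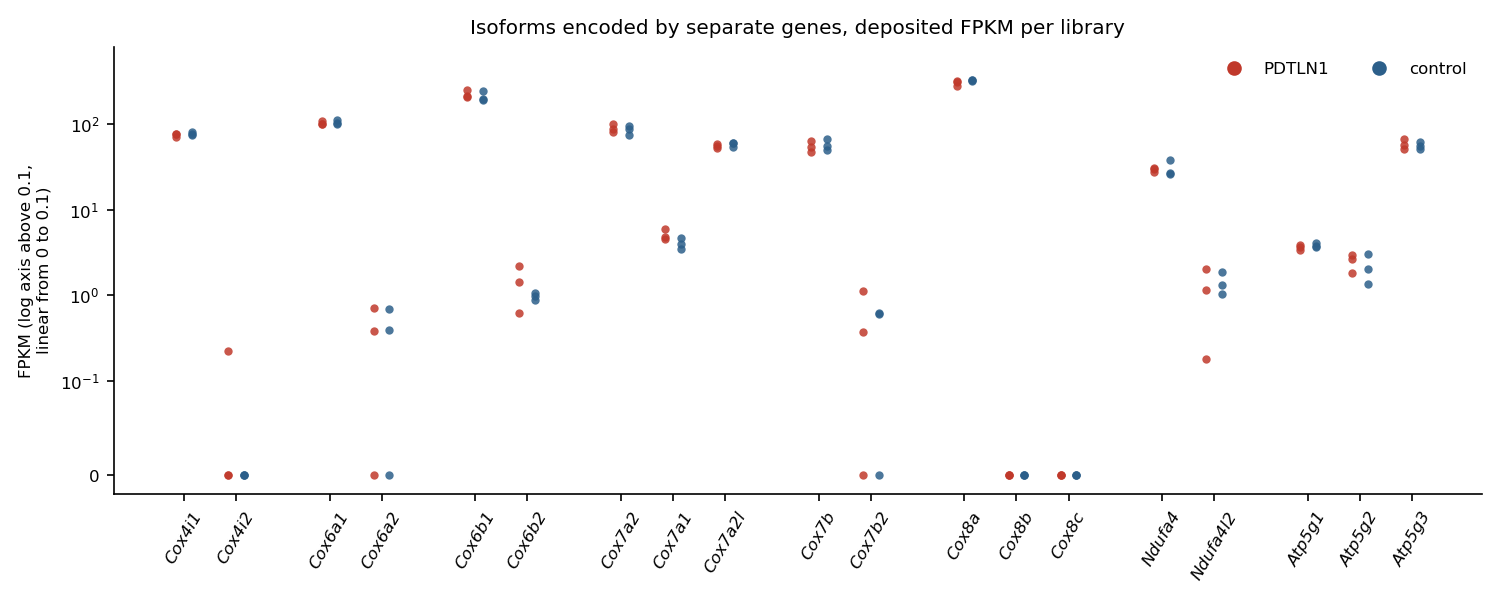
Deposited FPKM per library (log axis above 0.1, linear from 0 to 0.1) of subunit isoforms encoded by separate genes, with PDTLN1 (red) left of control (blue). The common isoform lies well above its tissue isoforms in every library, Cox8b and Cox8c lie at 0 in all 6, and Atp5g3 stands above Atp5g1 and Atp5g2.

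PDTLN1 and control libraries were compared to ask which mRNAs the peptide altered. By edgeR's quasi-likelihood test, 0 of the 102 tested OXPHOS genes had an adjusted p under 0.05, against 0.0217% of all 13836 tested genes (3 genes). At an unadjusted p under 0.05 there were 5 OXPHOS genes (4.90%), with 3.99% of all tested genes past the same mark. All 5 were lower after PDTLN1 (Tmem70, Atp5d, Ndufs8, Cox11 and Ndufb4), where 1.69% of all genes were both past the mark and lower. Without the 2 libraries numbered 1, the log2 fold changes of Atp5d, Ndufs8, Cox11 and Ndufb4 were -0.40, -0.28, -0.22 and -0.56, with edgeR adjusted p values from 0.223 to 0.515. DESeq2 called 1 OXPHOS gene, Tmem70, at an adjusted p under 0.05, with 0.0723% of all genes called. With the 2 libraries numbered 1 left out, which favours calls, edgeR called 2, Tmem70 and Sdhd, with 0.652% of all genes called (91 genes). In these bulk libraries fewer cells of a type and less RNA per cell cannot be told apart.

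The groups did not overlap for 9 OXPHOS genes. In 7 of them (6.86%) every PDTLN1 library was below every control, where 4.98% of all tested genes did so: these were Ndufb4, Ndufs8, Uqcrfs1, Cox11, Tmem70, Atp5s and Atp5d. In 2 (1.96%), Ndufs3 and Ndufaf5, every PDTLN1 library was above, against 4.81% of all genes. The median log2 fold change was -0.03 over the 102 genes, with 39 above 0 and 63 below (61.8%), and -0.00 over all tested genes, with 6878 above and 6958 below (50.3%). By complex the medians were -0.02 for complex I, 0.05 for complex II, -0.01 for complex III, -0.04 for complex IV and -0.08 for complex V. The 95% interval of the fold change lay within 1.5-fold in either direction for 84 of the 102 genes (82.4%) and for 69.9% of all tested genes, so for most OXPHOS genes a larger change was outside the interval.

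**Figure D3:**
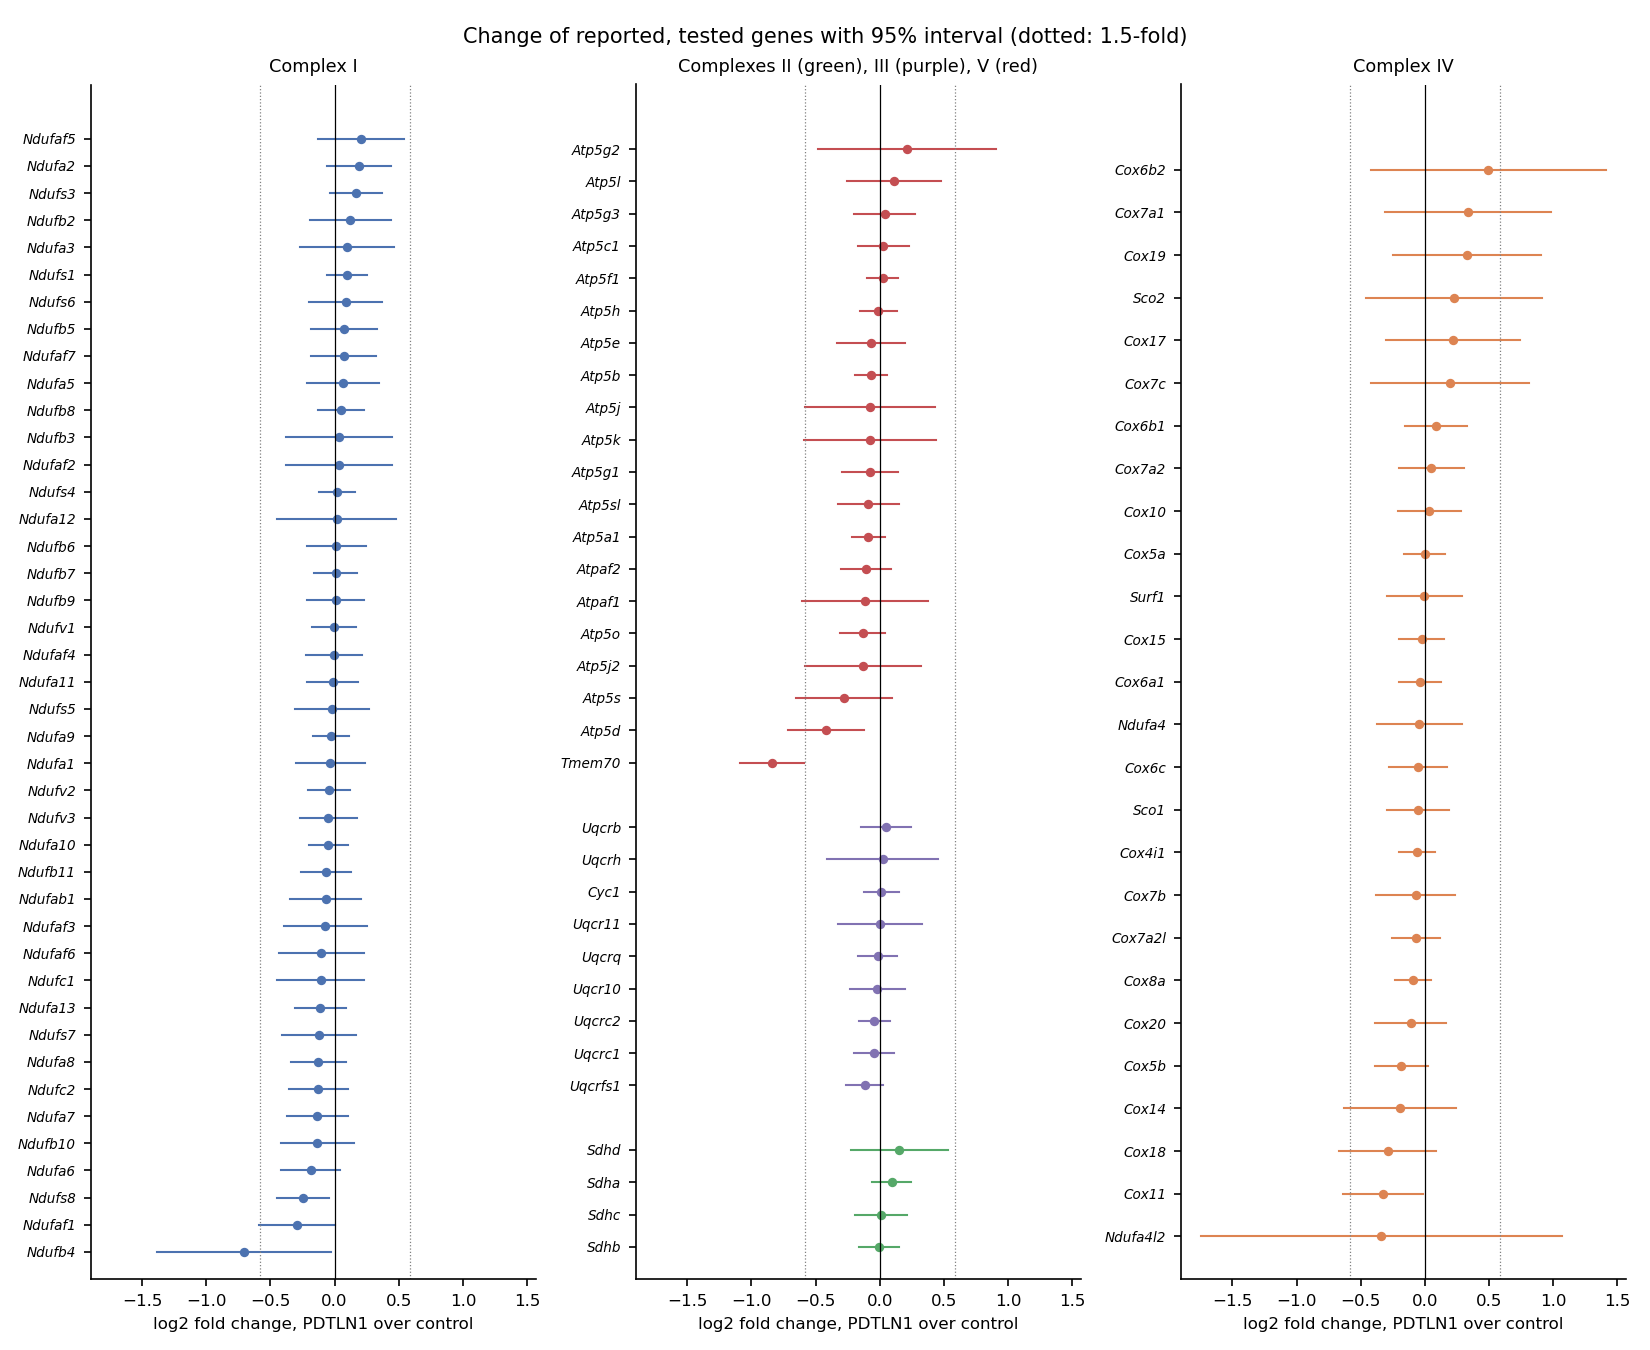
Log2 fold change (PDTLN1 over control) of the reported and tested OXPHOS genes with 95% intervals from edgeR, sorted within complexes; dotted lines mark 1.5-fold in either direction. Most points lie near 0 with intervals inside the dotted lines, Tmem70 stands lowest at -0.84, and the widest intervals belong to genes of low counts such as Ndufa4l2.

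Tmem70 showed the largest difference among these genes. It encodes an inner membrane protein that helps to build the c ring into the ATP synthase, and its loss in humans causes ATP synthase deficiency. The gene (ENSMUSG00000025940) occupies bases 16665207 to 16678275 of the plus strand of chromosome 1 (GRCm38) and overlaps no other gene in the table. Its level was 16.8, 14.9 and 14.7 CPM in PDTLN1 libraries 1, 2 and 3, from 174, 172 and 172 counts, and 28.9, 25.6 and 28.7 CPM in control libraries 1, 2 and 3, from 301, 273 and 320 counts. All 3 PDTLN1 libraries were thus well below all 3 controls, and the gap between the groups exceeded the spread within either. The PDTLN1 level was 0.559 times the control level, or -0.84 on the log2 scale (SE 0.11, 95% interval -1.09 to -0.59).

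With edgeR's quasi-likelihood test, Tmem70 had the 4th smallest p of all 13836 genes, 3.50e-05, and an adjusted p of 0.112, so it did not pass the threshold over all genes. The call depended on the method. Its adjusted p was 4.74e-05 with DESeq2 and 0.0174 in edgeR with no filter on low counts. With the replicate number added to the edgeR model, Tmem70 did not pass. Without the 2 libraries numbered 1 the log2 fold change was -0.88. Leaving out 1 library at a time gave adjusted p values from 0.0692 to 0.475 and log2 fold changes from -0.90 to -0.80. The nearest tested gene upstream, Tceb1, which encodes elongin C and lies 8164 bases away on the minus strand, was at 60.2, 67.5 and 81.7 CPM after PDTLN1 and 76.6, 65.6 and 63.5 CPM in controls, a log2 fold change of 0.03 with overlapping groups. Downstream, Ly96, a co-receptor for bacterial lipopolysaccharide 9775 bases away, was at 0.581, 1.82 and 1.62 CPM after PDTLN1 and 0.672, 0.844 and 0.986 CPM in controls, with a log2 fold change of 0.69 (SE 0.46).

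**Figure D4:**
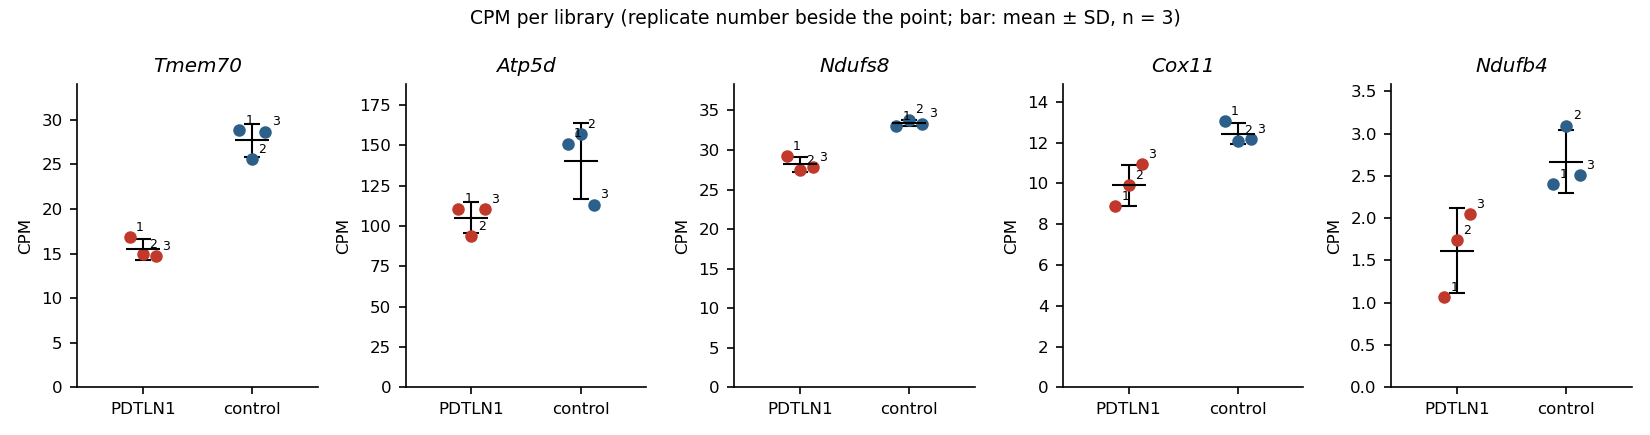
CPM per library (points, replicate number beside each) with mean and SD (bars, n = 3) for the 5 OXPHOS genes with an unadjusted edgeR p under 0.05, PDTLN1 (red) left of control (blue). Tmem70 shows the widest separation, at 14.7 to 16.8 CPM after PDTLN1 and 25.6 to 28.9 CPM in controls, while control library 3 of Atp5d, at 113 CPM, lies close to the PDTLN1 libraries.

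The other assembly factors of complex V had log2 fold changes nearer to 0. Atpaf1, which binds the beta subunit of F1, was at 7.74, 13.6 and 13.2 CPM after PDTLN1 and 11.998, 14.4 and 11.1 CPM in controls, with a log2 fold change of -0.12 (SE 0.22). PDTLN1 library 1 was the lowest, and without the libraries numbered 1 the value turned to 0.07. Atpaf2, which binds the alpha subunit, had 56.7 ± 4.08 CPM after PDTLN1 and 61.2 ± 3.43 CPM in controls (SD, n = 3 each). Its log2 fold change was -0.11. Atp5s and Atp5sl were counted with complex V for their names alone, and RefSeq lists them as Dmac2l and Dmac2. Their log2 fold changes were -0.28 and -0.09. For these 4 genes edgeR's adjusted p was 0.989.

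Among the subunits of complex V, Atp5d, the delta subunit in the central stalk of F1, was at 111, 93.9 and 110 CPM after PDTLN1 and 151, 157 and 113 CPM in controls. The highest PDTLN1 library lay just under the lowest control. The log2 fold change was -0.42 (SE 0.13), with an unadjusted p of 0.0108 and an adjusted p of 0.989 in edgeR's quasi-likelihood test. Atp5d overlaps Cbarp on the opposite strand, and whether the counting used strand is not given in the sources used here. The other F1 subunits lay close to 0: Atp5b had 1680.4 ± 84.3 CPM after PDTLN1 and 1763 ± 37.0 CPM in controls (SD, n = 3 each), and the log2 fold changes were -0.07 for Atp5b, -0.09 for Atp5a1, 0.03 for Atp5c1 and -0.07 for Atp5e. Atp5a1 and Atp5b together took 0.271%, 0.254% and 0.251% of the counts of PDTLN1 libraries 1, 2 and 3, and 0.264%, 0.271% and 0.281% of those of control libraries 1, 2 and 3.

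No stator, membrane or ring subunit of ATP synthase had an unadjusted edgeR p under 0.05. In the peripheral stalk, Atp5o, which joins the stalk to F1, had a log2 fold change of -0.13 and Atp5f1, the b subunit, of 0.02. Atp5l, the g subunit at the dimer interface, was at 0.11. The c-ring genes were at 0.04 for Atp5g3, -0.08 for Atp5g1 and 0.21 for Atp5g2. Atp5g2 spread widely, at 5.61, 6.26 and 3.84 CPM after PDTLN1 and 4.32, 6.38 and 2.87 CPM in controls. Of the 20 complex V genes, 5 were above 0 and 15 below, Atp5s and Atp5sl among the latter. Of its 15 subunits alone, 5 were above 0 and 10 below, with a median of -0.07.

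In complex I, 18 genes were above 0 and 25 below. The core subunits, which carry the flavin and iron-sulphur clusters and the quinone site, had log2 fold changes between -0.25 for Ndufs8 and 0.17 for Ndufs3. Ndufs8, an iron-sulphur subunit on the path to the quinone site, was at 29.2, 27.5 and 27.8 CPM after PDTLN1 and 33.0, 33.8 and 33.3 CPM in controls. Both groups were tight and did not overlap, and with an SE of 0.09 edgeR gave an unadjusted p of 0.0219 and an adjusted p of 0.989. Ndufs3, a core subunit of the peripheral arm, differed in the other direction, at 46.8, 41.0 and 46.6 CPM after PDTLN1 and 38.7, 40.4 and 40.7 CPM in controls, with an unadjusted p of 0.0945 in edgeR. Ndufs3 overlaps Kbtbd4 on the opposite strand. Other core subunits had log2 fold changes of 0.09 for Ndufs1, -0.01 for Ndufv1, -0.04 for Ndufv2 and -0.12 for Ndufs7.

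The 29 accessory subunits of complex I had a median log2 fold change of -0.02. Ndufb4, in the membrane arm, was at 1.06, 1.74 and 2.05 CPM after PDTLN1 and 2.40, 3.09 and 2.51 CPM in controls. The groups did not overlap, but the counts were few and the interval of the log2 fold change of -0.71 ran from -1.38 to -0.03, with an unadjusted edgeR p of 0.0426. Ndufa2, a small subunit of the peripheral arm, was at 33.5, 36.3 and 43.0 CPM after PDTLN1 and 34.2, 32.5 and 32.1 CPM in controls, a log2 fold change of 0.19 with PDTLN1 library 1 among the controls, and of 0.29 without the libraries numbered 1. Ndufb9, the most abundant by FPKM, had a log2 fold change of 0.01 and a 95% interval of -0.21 to 0.23. Among OXPHOS genes with at least 10 CPM the smallest spread over the libraries was that of Ndufs4, at 108 ± 4.15 CPM after PDTLN1 and 106 ± 0.748 CPM in controls (SD, n = 3 each).

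Of the 7 complex I assembly factors, 3 were above 0 and 4 below. Ndufaf1, which helps to assemble the membrane arm, was at 17.2, 20.8 and 15.9 CPM after PDTLN1 and 20.5, 21.8 and 23.7 CPM in controls, a log2 fold change of -0.29 with an unadjusted edgeR p of 0.0514. Only PDTLN1 library 2 reached the control range. Ndufaf5, which modifies an arginine of Ndufs7, was at 10.3, 11.5 and 9.74 CPM after PDTLN1 and 9.60, 9.56 and 8.16 CPM in controls, a log2 fold change of 0.20. Ndufaf7, a methyltransferase, was at 0.07, and Ndufaf6 at -0.10.

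Complex II consists of 4 nuclear-encoded subunits and has no mitochondrially encoded one. Sdha, the flavin subunit, had 321 ± 20.97 CPM after PDTLN1 and 300 ± 17.6 CPM in controls (SD, n = 3 each). Its log2 fold change was 0.09 and became -0.01 without the libraries numbered 1. Sdhb, the iron-sulphur subunit, and Sdhc, an anchor, were at -0.00 and 0.01, with intervals of -0.16 to 0.15 and -0.19 to 0.21. Sdhd was at 127, 166 and 167 CPM in PDTLN1 libraries 1, 2 and 3, and 167, 130 and 116 CPM in control libraries 1, 2 and 3. The 2 libraries numbered 1 each carried the level of the other group. With all 6 libraries its log2 fold change was 0.15 (SE 0.16, edgeR adjusted p 0.989). Without those 2 it was 0.43, a value that follows from leaving out the libraries that stood with the other group.

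In complex III, 4 genes were above 0 and 5 below, and the log2 fold changes of all 9 lay between -0.12 and 0.05. Cyc1 was at 130, 127 and 131 CPM after PDTLN1 and 123, 130 and 132 CPM in controls, a log2 fold change of 0.01 with an interval of -0.12 to 0.15. Uqcrfs1, the Rieske iron-sulphur protein, was at 115, 112 and 115 CPM after PDTLN1 and 130, 122 and 118 CPM in controls. Its groups did not overlap, but the log2 fold change was -0.12, with an unadjusted edgeR p of 0.0991. Uqcrb, an accessory subunit near the quinone site, had a log2 fold change of 0.05, and Uqcrc2, a core subunit, of -0.04 with an interval of -0.16 to 0.08.

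In complex IV, 9 of the 26 tested genes were above 0 and 17 below, and the 11 common subunits had a median log2 fold change of -0.04. Cox5b, a zinc-binding subunit on the matrix side, was at 89.7, 90.7 and 111 CPM after PDTLN1 and 112, 113 and 105 CPM in controls, a log2 fold change of -0.18 with an unadjusted edgeR p of 0.0766. Cox8a was at 174, 154 and 170 CPM after PDTLN1 and 174, 178 and 178 CPM in controls, a log2 fold change of -0.09. Cox4i1, Cox6a1 and Cox7a2 had log2 fold changes of -0.06, -0.04 and 0.05. Of the tissue isoforms that could be tested, Cox6b2 was at 0.49 (SE 0.40), Cox7a1 at 0.34 (SE 0.29) and Ndufa4l2 at -0.34 (SE 0.62), with intervals that all included 0. The Cox6b2 value rested on PDTLN1 library 1, at 6.10 CPM against 1.74 and 3.93 CPM in the other PDTLN1 libraries, and was -0.03 without the libraries numbered 1.

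The 11 assembly factors of complex IV had log2 fold changes from -0.33 to 0.33, and its 11 common subunits from -0.18 to 0.19. Of the 5 copper-delivery proteins, 3 were above 0 and 2 below. Cox11, which brings copper to the Cox1 subunit, was at 8.90, 9.91 and 10.9 CPM after PDTLN1 and 13.1, 12.1 and 12.2 CPM in controls, a log2 fold change of -0.33 (SE 0.14), with an unadjusted p of 0.0418 and an adjusted p of 0.989 in edgeR. The groups did not overlap, and Cox11 overlaps Tom1l1 on the opposite strand along most of its length in the table. Cox19, an intermembrane-space protein linked to copper handling, was at 11.5, 16.9 and 16.996 CPM in PDTLN1 libraries 1, 2 and 3 and 16.8, 10.3 and 9.14 CPM in control libraries 1, 2 and 3. As for Sdhd, each library numbered 1 carried the other group's level. The log2 fold change of Cox19 was 0.33 (SE 0.25) with all libraries and 0.80 without those 2, for the same reason.

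Cox17, the copper chaperone that feeds Sco1 and Sco2, was at 23.0, 14.9 and 24.1 CPM after PDTLN1 and 13.1, 18.7 and 21.5 CPM in controls, a log2 fold change of 0.22 that was -0.04 without the libraries numbered 1. Sco2, which passes copper to the Cox2 subunit, ranged from 9.38 to 17.6 CPM after PDTLN1 and from 8.44 to 16.4 CPM in controls, and Sco1 had a log2 fold change of -0.06. The heme A enzymes Cox10 and Cox15 were at 0.04 and -0.02. The 4 factors that insert or mature subunits were all below 0 without passing the test, at -0.29 for Cox18, which inserts the tail of Cox2, -0.19 for Cox14, which acts on new Cox1, -0.11 for Cox20, a Cox2 chaperone, and -0.00 for Surf1, mutated in human Leigh syndrome. Cox14 rested on PDTLN1 library 2, at 10.7 CPM against 17.5 and 17.8 CPM in the other PDTLN1 libraries and 16.3 to 18.9 CPM in controls.

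The spread between libraries differed widely between genes. The SD of log2 CPM over the 6 libraries had a median of 0.131 for the OXPHOS genes, 0.123 for genes of similar level and 0.156 for all tested genes. Among OXPHOS genes with at least 10 CPM, it was smallest for Ndufs4 (0.037), Cyc1 (0.038) and Ndufaf4 (0.043), and largest for Tmem70 (0.465), Sco2 (0.445), Cox19 (0.402) and Cox17 (0.350). Of these 4, only Tmem70 separated the groups. Together the 107 genes took 0.942%, 0.913% and 0.964% of the counts in PDTLN1 libraries 1, 2 and 3, and 0.973%, 0.965% and 0.956% in control libraries 1, 2 and 3, so that PDTLN1 library 3 lay within the control range.

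The complexes deviated by different amounts within a library. The mean deviation of complex IV genes from their own 6-library means was 0.06, -0.19 and 0.10 log2 units in PDTLN1 libraries 1, 2 and 3, and 0.05, -0.01 and -0.02 in control libraries 1, 2 and 3. For complex V it was -0.11, -0.05 and -0.01 in PDTLN1 libraries 1, 2 and 3, and 0.12, 0.12 and -0.07 in control libraries 1, 2 and 3. Complex V was thus below its mean in PDTLN1 libraries 1 and 2 and in control library 3. In PDTLN1 library 3 it lay almost at its mean (-0.0059). These complex V values include Tmem70, and values without it were not computed. Complex IV was lowest in PDTLN1 library 2. Its mean weighs each tested gene alike, tissue isoforms of low counts included. In that library Ndufa4l2 had 2 counts, against 11 to 20 in the others, and Cox6b2 had 20, against 26 to 63. Cox7a1, another such isoform, was highest there, at 25 counts. Complex IV values without these isoforms were not computed.

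**Figure D5:**
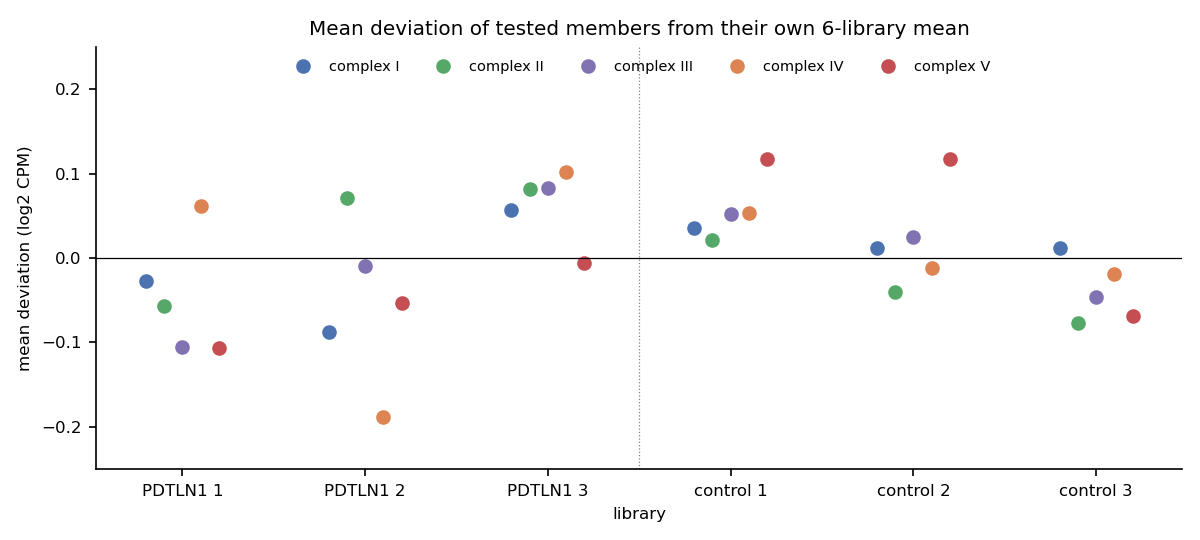
Mean deviation of the tested genes of each complex from their own mean over the 6 libraries (log2 CPM), for the 3 PDTLN1 libraries on the left and the 3 controls on the right. Complex IV, whose mean includes tissue isoforms of low counts, reaches -0.19 in PDTLN1 library 2. Complex V reaches 0.12 in control libraries 1 and 2, and the groups overlap for every complex.

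Beyond the 107 genes, 5 lists of further genes of the pathway were counted, and DESeq2 called 0 genes in any of them at an adjusted p under 0.05. Of the 30 further assembly factors and electron carriers that were tested, 15 were above 0 and 15 below, with none past edgeR's adjusted threshold and none at an unadjusted p under 0.05. The smallest p-values belonged to Tmem126a and Ecsit, both assembly factors of complex I, with log2 fold changes of 0.15 and -0.13. The 13 mRNAs of the mitochondrial genome had a median log2 fold change of 0.00, with 7 above 0 and 6 below and none past either mark, and took 3.46%, 3.80% and 3.67% of the counts in PDTLN1 libraries 1, 2 and 3, and 4.01%, 3.71% and 3.56% in control libraries 1, 2 and 3. Among those above 0, mt-Nd4l (0.59, SE 1.61) had 1 count in control library 2 and 5545 to 8527 counts in each other library. The cause was not tested. mt-Co3 and mt-Atp6, partners of the nuclear complex IV and V subunits, were at -0.14 and -0.12. mt-Nd6, a complex I mRNA from the light strand, was at 28.7, 119 and 159 CPM in PDTLN1 libraries 1, 2 and 3, and 117, 38.9 and 16.1 CPM in control libraries 1, 2 and 3, so that each library numbered 1 again carried the other group's level. Its log2 fold change was 0.84 (SE 0.99) with all libraries and 2.34 without those 2. The same crossing stood in mt-Nd1, mt-Nd2, mt-Nd3 and mt-Cytb, with log2 fold changes of 0.00, 0.09, 0.13 and 0.13 with all libraries. Without those 2 libraries they were 0.31, 0.50, 0.70 and 0.54, again a result of leaving them out. In contrast, mt-Nd5, mt-Co1, mt-Co3, mt-Atp6 and mt-Atp8 stayed below 0 either way. The median of 0.00 was taken over both kinds.

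Coenzyme Q synthesis genes were 7 above and 6 below 0, led by Pdss1 (-0.23) and Coq2 (-0.20). Without the libraries numbered 1, Pdss1 was at -0.06 and Coq2 at -0.24. Of 18 genes of the TCA cycle and pyruvate dehydrogenase, 4 were above 0 and 14 below, but the median was -0.01, with Idh2 at -0.16 and Dlat at -0.11. Of 14 tested regulators of mitochondrial gene expression, 11 were above 0 and 3 below, with a median of 0.03. Tfb1m, a methyltransferase of the mitochondrial ribosome, was at 31.6, 32.0 and 31.1 CPM after PDTLN1 and 29.9, 25.1 and 25.8 CPM in controls, a log2 fold change of 0.23 with an unadjusted edgeR p of 0.0511. Gabpb1, the partner of GABPA, was at 0.13, and at 0.33 without the libraries numbered 1, a choice that favours differences. The factors whose motifs were searched showed log2 fold changes of 0.02 for Nrf1, 0.01 for Gabpa and 0.04 for Yy1. In each of these 3 lists edgeR called 0 genes at an adjusted p under 0.05 and 0 at an unadjusted p under 0.05.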

How the data were processed

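Gene counts and FPKM of 3 PDTLN1 and 3 control libraries (Illumina TruSeq RNA kit, per the labels) were used. The deposited counts are unnormalized whole numbers. The FPKM deposited by the authors follow from them by library total and a gene length. Bowtie 0.12.2 and the builds mm8 and mm9 are named per the submitters' processing notes, with no role given. The sources used here give no annotation, strand setting or handling of reads with several matches. Of the 107 genes, 76 have the coordinates of GENCODE M21 (GRCm38), and 33 overlap another gene of the table. The rule left out 4 rows with -ps in their names, which held 35 to 52 counts per library together.

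Table columns were matched to samples by title, and groups came from the treatment label, since titles of treated samples hold an unexplained code. edgeR 4.0.16 in R 4.3.3 (filterByExpr, TMM, glmQLFit with robust estimation, glmQLFTest) was fitted on the whole table, with Benjamini-Hochberg adjustment over all 13836 genes tested. The biological coefficient of variation was 0.126. CPM use TMM-scaled library sizes. The step was tested on simulated data. DESeq2 1.42.0 was an alternative. Others were the replicate block, DESeq2 size factors, library size alone, other filters, thresholds of 0.01 and 0.1, and leaving out each library. Added after seeing the data were leaving out both libraries numbered 1, and lengths of APPRIS principal transcripts. Lists are described by counts and medians.

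The members, the lists and the rule for naming genes were chosen with earlier results of these data known. Named are, in each complex, the subunits and assembly factors with the 2 smallest p per direction and the subunits of highest and lowest FPKM, with Tmem70, the Sdh genes, the isoform families, the complex IV and V assembly factors, and up to 2 genes per further list. Genes named beyond this rule (other complex I core and F1 subunits, those of extreme spread, Ndufa7, Atp5f1, Cox7c, Atp5s, Atp5sl, mt-Nd4l, mt-Nd6 and other mitochondrial mRNAs, single markers, Nrf1, Gabpa and Yy1) were chosen after their values were seen. A gene is counted but not reported here. Promoters came from RefSeq (GRCm38.p6).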

Additional observations from a re-analysis of the deposited data

How the results depend on the processing

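Across the alternatives, 464 values of named genes kept their direction and side of the threshold, 4 passed it only there and 26 changed sign, and 63 of 65 complex medians moved by less than the spread between libraries. No OXPHOS gene passed in edgeR with all libraries. DESeq2 and edgeR with no low-count filter each called 1, edgeR without the 2 libraries numbered 1 called 2 (a choice that favours calls), and leaving out 1 library at a time called 0. Of all genes, 3 passed with all libraries, 10 with DESeq2, 8 with no low-count filter, 91 without the libraries numbered 1, and 2 to 13 with 1 library left out. Same-numbered libraries did not deviate together (correlations of -0.36, -0.14 and -0.10 for numbers 1, 2 and 3). What a number shares is not given in the labels and was not tested. With the replicate block 1 of all genes and 0 OXPHOS genes passed, and the adjusted p of Tmem70 was 1.00. The complex III median ranged from -0.062 to 0.012 with 1 library left out and was 0.040 without the libraries numbered 1.

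Several log2 fold changes turned to the other sign, many of them near 0 with all libraries. Those of Cox6b2 (0.49), Atp5g2 (0.21), Cox14 (-0.19) and Cox17 lay further from 0. Without the libraries numbered 1, log2 fold changes were -0.029 for Ndufaf7, -0.0072 for Sdha, 0.014 for Sdhb, -0.021 for Cyc1, -0.027 for Cox6b2, -0.044 for Cox17 and 0.067 for Atpaf1. With 1 library left out at a time they ranged from -0.040 to 0.029 for Sdhb, -0.065 to 0.072 for Sdhc, -0.0066 to 0.12 for Uqcrb, -0.016 to 0.034 for Cyc1, -0.033 to 0.55 for Atp5g2, -0.0024 to 0.24 for Atp5l, -0.11 to 0.052 for Sco1, -0.048 to 0.12 for Cox10, -0.087 to 0.018 for Cox15, -0.32 to 0.012 for Cox14, -0.091 to 0.080 for Surf1 and -0.25 to 0.098 for Atpaf1. The cause was not tested, and a group then rests on 2 libraries. On principal transcript length in place of the authors' length, median levels were 44.4, 96.6, 101, 17.6 and 93.5 RPKM for complexes I to V, against 16.9, 47.0, 54.8, 11.6 and 24.4 FPKM. Genes at a few counts per library, such as Ndufb4 and Ndufa4l2, are limited by depth. The stricter filter, the other scalings and the other thresholds moved no other count of OXPHOS genes.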
